A study of Homo sapiens with 6 samples.

Results

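Peak intervals of LSD1 and of 2 histone marks were examined around 6 growth factor receptor genes, KIT, IGF1R, EGFR, MET, FGFR1 and ERBB2, and around BCL2, in NCI-H526, an established human small cell lung cancer cell line. Members were the distinct intervals lying within 50 kb of the 7 genes on hg19, with gene ends given to the nearest 1 kb. They numbered 421 of 271093 intervals in the 4 peak lists: 59 of 45188 for LSD1 in cells given DMSO (the vehicle), 64 of 49597 for LSD1 in cells given an LSD1 inhibitor, 138 of 81619 for H3K4me2 with DMSO and 160 of 94689 for H3K4me1 with DMSO. The inhibitor is labelled GSK552, and the treatment protocol names GSK2879552 at 1 µM for 24 hours. All 6 samples came from this line grown in RPMI medium with serum, 2 of them were inputs that were not analysed here, and every group was 1 library. No test between libraries was therefore possible, and each comparison below describes single libraries. Both LSD1 lists were set against the same DMSO marks, and marks after inhibitor were not analysed here.

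The receptors are tyrosine kinases of the cell surface: they sense growth factors outside the cell and signal through the RAS and PI3K pathways within. BCL2 holds back the mitochondrial route of cell death and is a long-studied survival protein of small cell lung cancer, and NCI-H526 has long been used as a KIT-expressing line. LSD1 (KDM1A) removes methyl groups from H3K4me2 and H3K4me1. H3K4me2 is common at active promoters and enhancers, and H3K4me1 is common at enhancers.

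The sequence at the 5′ end is shown for 3 genes with wide H3K4me2 there, IGF1R, MET and BCL2, and for EGFR, which had little. The 250 bases before the start are from RefSeq (GRCh38.p14), written 5′ to 3′ along the gene, with every CpG in capitals. The strand is plus for IGF1R (chr15:98648289-98648538), MET (chr7:116671946-116672195) and EGFR (chr7:55018767-55019016) and minus for BCL2 (chr18:63319770-63320019). These GRCh38 positions cannot be set beside the hg19 positions used everywhere else.
IGF1R: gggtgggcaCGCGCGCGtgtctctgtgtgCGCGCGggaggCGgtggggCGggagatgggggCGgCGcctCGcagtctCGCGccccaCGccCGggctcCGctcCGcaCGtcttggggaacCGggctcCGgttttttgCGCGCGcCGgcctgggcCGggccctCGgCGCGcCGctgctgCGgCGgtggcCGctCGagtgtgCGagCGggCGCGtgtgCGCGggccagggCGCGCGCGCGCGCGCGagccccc
MET: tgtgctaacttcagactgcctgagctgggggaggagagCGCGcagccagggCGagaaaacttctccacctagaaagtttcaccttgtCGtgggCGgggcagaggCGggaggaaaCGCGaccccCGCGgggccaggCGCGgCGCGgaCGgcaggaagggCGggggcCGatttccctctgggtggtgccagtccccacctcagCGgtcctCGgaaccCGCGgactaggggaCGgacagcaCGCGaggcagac
BCL2: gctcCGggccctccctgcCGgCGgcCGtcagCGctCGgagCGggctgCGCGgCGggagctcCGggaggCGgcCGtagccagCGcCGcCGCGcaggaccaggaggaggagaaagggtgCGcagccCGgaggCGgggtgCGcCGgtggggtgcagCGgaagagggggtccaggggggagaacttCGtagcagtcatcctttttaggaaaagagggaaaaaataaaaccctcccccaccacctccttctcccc
EGFR: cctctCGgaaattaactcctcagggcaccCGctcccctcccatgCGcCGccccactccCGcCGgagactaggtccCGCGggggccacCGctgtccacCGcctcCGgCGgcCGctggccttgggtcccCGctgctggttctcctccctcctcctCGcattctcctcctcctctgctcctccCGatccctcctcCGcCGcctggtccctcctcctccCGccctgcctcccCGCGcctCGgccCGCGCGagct

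Of the 7 genes, 6 had an entry in the promoter table. IGF1R held 48 CpG in these bases, a count reached by 0.262% of the 35116 promoters in the table, and KIT held 34. EGFR (25), MET (24), BCL2 (24) and ERBB2 (23) were close to each other, each above the table's median of 11. A second EGFR entry, further along the gene, held 1 CpG. The GC box (GGGCGG, both strands) occurred 2 times each in IGF1R, MET and the first EGFR entry and 1 time in KIT, and it was present in 42.6% of all promoters. The short motif AATC (both strands), the core recognised by GFI1, a DNA-binding partner of LSD1, occurred 2 times in ERBB2 and 1 time each in MET and the second EGFR entry, against 64.8% of promoters with at least 1. RefSeq places PGAP3 and other genes before ERBB2, so the ERBB2 bases counted here may also belong to a neighbour. No octamer (ATGCAAAT, both strands, 1.63% of promoters) or E-box (CACGTG, 6.34%) was found in the 6 genes.

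The windows ranged from very dense to nearly bare. BCL2 carried the most intervals per length in 3 of the 4 lists: 23 LSD1 peaks with inhibitor (7.77 per 100 kb), 44 H3K4me2 intervals (14.9 per 100 kb) and 53 H3K4me1 intervals (17.9 per 100 kb). Over the whole lists the densities were 1.60, 2.64 and 3.06 per 100 kb. With 100 kb flanks H3K4me2 was denser at ERBB2 (35 intervals, 14.5 per 100 kb) than at BCL2 (51, 12.9). With the 50% highest-scoring peaks, H3K4me2 was nearly as dense at ERBB2 (9, 6.38 per 100 kb) as at BCL2 (19, 6.42). LSD1 with inhibitor then had 2.65 per 100 kb at MET and 3.04 at BCL2. H3K4me1 then had 6.49 per 100 kb at IGF1R and 9.80 at BCL2. EGFR stood at the other end, with 2 LSD1 peaks in either list, 3 H3K4me2 intervals and no H3K4me1 interval in 288 kb. Among consecutive genome windows as long as that of BCL2, 0.698% held at least 44 H3K4me2 intervals, 0.901% at least 53 H3K4me1 intervals and 1.15% at least 23 LSD1 peaks with inhibitor. Of the BCL2-length windows 5.52% held at least 14 LSD1 peaks with DMSO. For windows as long as that of EGFR, 11.1% had no H3K4me1, 32.1% had at most 3 H3K4me2 intervals, and 33.6% (DMSO) and 30.1% (inhibitor) had at most 2 LSD1 peaks. At least as many as at EGFR were found in 78.9% of them for LSD1 with DMSO, 81.3% with inhibitor, 75.3% for H3K4me2 and, trivially, 100% for H3K4me1. Windows with no interval in any list were left out of these shares, which describe the genome and are not a test.

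**Figure D1:**
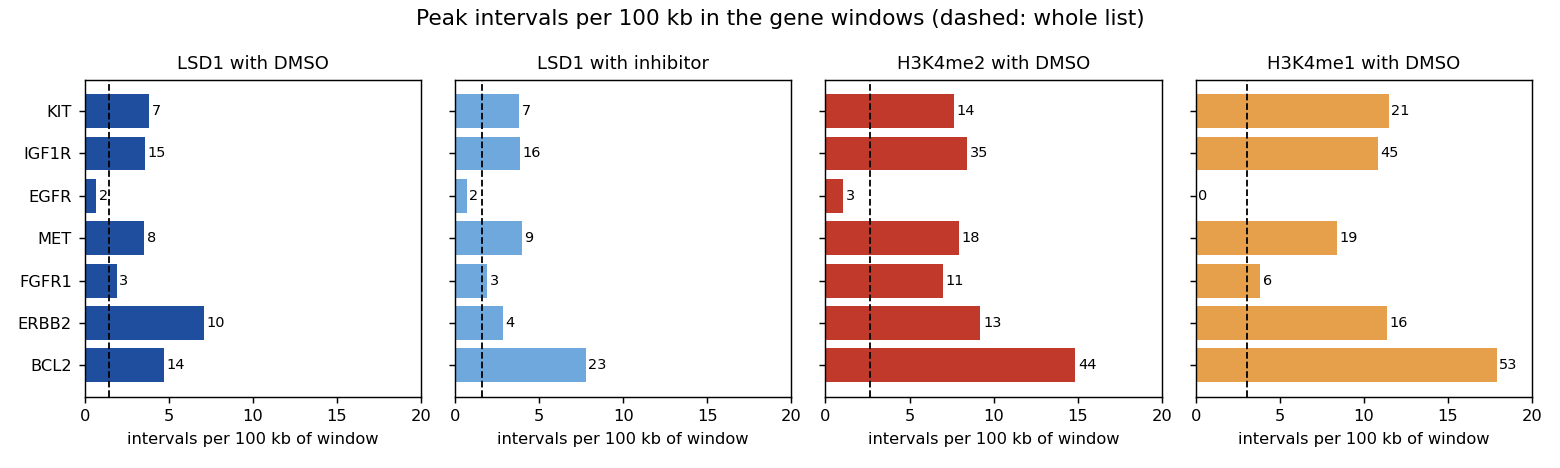
Intervals per 100 kb of window for the 7 genes (bars) in each of the 4 peak lists, with the number of intervals printed at each bar and the density of the whole list as a dashed line; each list is 1 library. EGFR lies below the dashed line in every list, and BCL2 has the longest bar in 3 lists, at 17.9 per 100 kb for H3K4me1.

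The order of the other genes depended on the list. H3K4me1 density was 11.5 per 100 kb at KIT (21 intervals), 11.3 at ERBB2 (16), 10.8 at IGF1R (45), 8.41 at MET (19) and 3.82 at FGFR1 (6). H3K4me2 was less spread, from 7.01 per 100 kb at FGFR1 (11 intervals) to 9.22 at ERBB2 (13). For LSD1 with DMSO, ERBB2 was densest, with 10 peaks (7.09 per 100 kb), ahead of BCL2 with 14 (4.73) and KIT with 7 (3.83). That order depended on weak peaks and on the flanks: with a −log10 q of at least 2, ERBB2 had 3 peaks (2.13 per 100 kb) and BCL2 had 9 (3.04), and with 10 kb flanks ERBB2 had 3 (4.92) and BCL2 had 12 (5.56). By covered length H3K4me1 took up 21.1% of the BCL2 window, 11.9% of the IGF1R window and 11.4% of the KIT window, against 2.19% of the genome. H3K4me2 covered more than H3K4me1 at FGFR1 (6.96% and 1.86% of the window), ERBB2 (9.37% and 5.99%) and EGFR (0.305% and 0), and less at the other 4 genes.

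The share of same-length windows with at least as many intervals gives the scale for each receptor. At KIT it was 12.8% for LSD1 with DMSO, 15.4% with inhibitor, 10.9% for H3K4me2 and 6.45% for H3K4me1. At IGF1R, with 15, 16, 35 and 45 intervals, it was 9.83%, 10.8%, 5.18% and 4.60% in the same order. At MET, with 8, 9, 18 and 19 intervals, it was 13.4%, 12.9%, 8.86% and 11.8%. FGFR1 lay nearest the middle of the genome for LSD1, with 3 peaks in each list and shares of 44.5% and 48.7%, and had 14.1% for H3K4me2 and 39.5% for H3K4me1. At ERBB2 it was 2.60% for LSD1 with DMSO, 30.6% with inhibitor, 8.19% for H3K4me2 and 7.89% for H3K4me1.

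From each peak's fold and p-value, taken as belonging to 1 position, a local background was worked out relative to the median of its list. The LSD1 lists have a broad-peak form without a summit, so this may not hold for them. Their values may then not be local backgrounds. Its median by window ran from 0.442 (FGFR1, LSD1 with inhibitor) to 1.34 (BCL2, LSD1 with inhibitor). BCL2 was above its lists' medians throughout (1.30 and 1.34 for LSD1, 1.07 for H3K4me2 and 1.20 for H3K4me1), and the part of this in its interval counts was not tested.

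**Figure D2:**
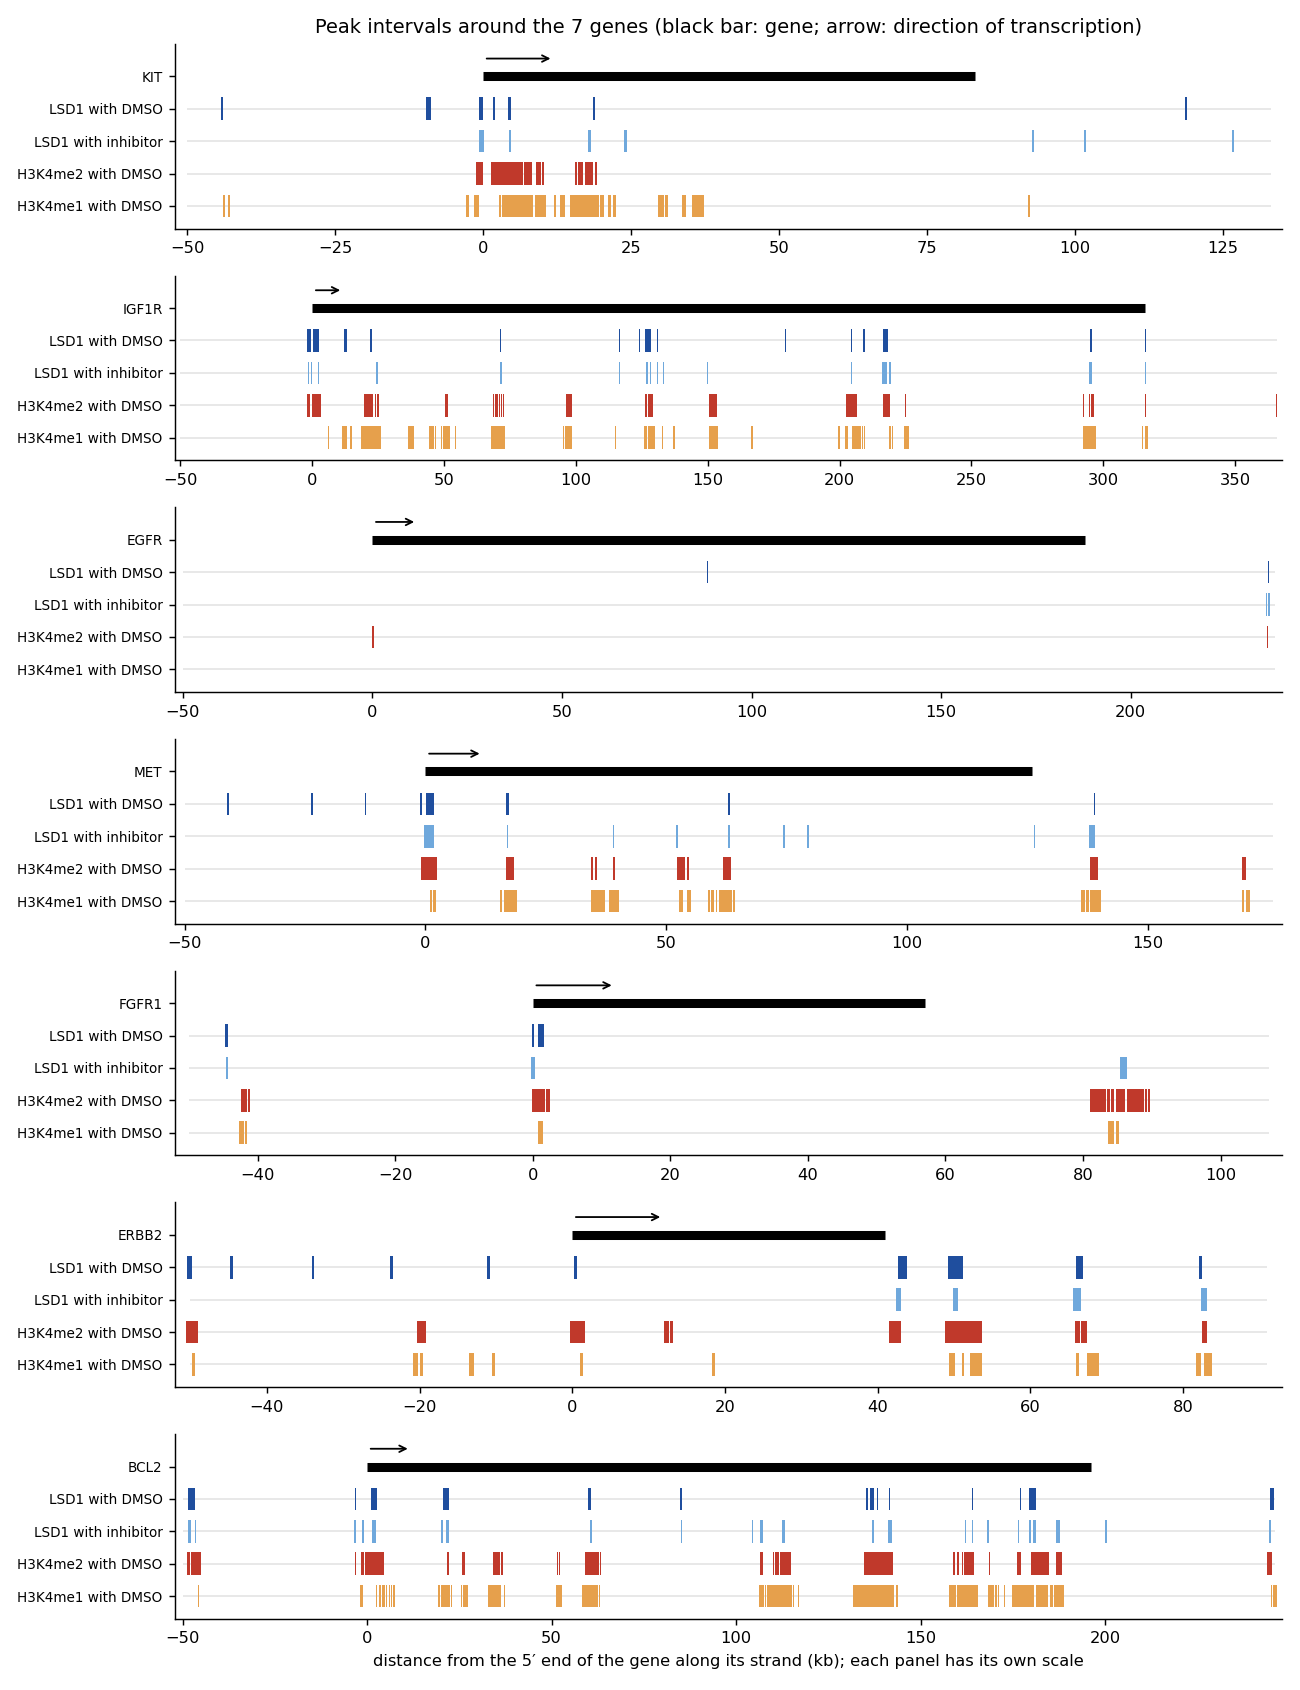
Position of every interval (coloured blocks) in the 7 gene windows, as distance in kb from the gene's 5′ end along its strand, in 1 row per peak list, with the gene as a black bar and an arrow for the direction of transcription. Intervals under 0.35 kb are drawn at that width. Marks spread through BCL2 and IGF1R, lie in the first part of the KIT gene, and number 3 at EGFR.

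KIT, the receptor of stem cell factor, carried its marks in the 5′ part of the gene. An H3K4me2 interval of 3471 bp lay 3.08 kb inside the gene at chr4:55525349-55528819, with a fold enrichment (the authors' value, a ratio to the background the peak caller estimated) of 14.7 and a −log10 q of 35.4. A second, at chr4:55522849-55523948, ended just before the 5′ end and had a fold of 10.1. H3K4me1 lay further in: its widest interval, 5265 bp at chr4:55527173-55532437, had a fold of 8.84, and the strongest, 4881 bp at chr4:55538748-55543628 and 17.2 kb inside the gene, had a fold of 14.0 and ranked 2911 in its list. The rest of the gene lay in the longest stretch of the window without an interval in any list, 54.7 kb from chr4:55561288. All 14 H3K4me2 intervals of the window overlapped H3K4me1, against 63.1% of the list.

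LSD1 at KIT was weak. The peak at the 5′ end was in both lists, at chr4:55523397-55524042 with DMSO (fold 3.47, −log10 q 2.19) and chr4:55523291-55524156 with inhibitor (fold 3.05, −log10 q 2.12). A second shared peak lay 4.48 kb inside the gene (fold 3.35 with DMSO, 3.52 with inhibitor). These 2 were the only shared ones among 7 peaks in each list, where 63.2% of all DMSO and 58.1% of all inhibitor peaks were shared. The DMSO peak 1.76 kb inside the gene, on H3K4me2, had a fold of 4.38 and no counterpart with inhibitor. The highest-scoring KIT peak with DMSO (fold 4.66) lay at −44.1 kb from the 5′ end, on neither mark, and the highest with inhibitor (fold 4.01) lay 102 kb from the 5′ end, past the gene, also on neither mark. None of the 14 peaks was within the top 5% of its list.

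IGF1R, the receptor of insulin-like growth factors, had a CpG-rich 5′ end without H3K4me1 and a long gene body rich in it. H3K4me2 covered 3.40 kb of the 4 kb around the 5′ end in 3 intervals, the widest being 3299 bp at chr15:99192169-99195467 with a fold of 17.2. No H3K4me1 interval lay within 5 kb on either side. Inside the gene, H3K4me1 reached a fold of 18.6 over 7530 bp at chr15:99210573-99218102, 22.3 kb from the 5′ end, which ranked 290 of 94689. A second broad interval of 4390 bp lay 70.2 kb in (fold 16.2). Of the 45 H3K4me1 intervals, 6 were within the top 5% of their list by −log10 q, a rank that 5.00% of the list holds by definition. Away from the start, H3K4me2 was strongest 205 kb (fold 16.9) and 218 kb (fold 15.2) inside the gene.

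The strongest LSD1 sites of IGF1R were also inside the gene, not at its 5′ end. The highest with inhibitor lay 127 kb in at chr15:99318567-99319343 (fold 6.40, −log10 q 10.9, rank 1177), under both marks, and overlapped a wider DMSO peak of 2291 bp (fold 4.99, rank 3488). The highest with DMSO lay 295 kb in at chr15:99487015-99487735 (fold 5.54, −log10 q 7.43, rank 1271) and was matched with inhibitor (fold 5.72, rank 4111), also under both marks. A narrow site 205 kb in had a fold of 3.89 with DMSO and 5.62 with inhibitor, on H3K4me2 without H3K4me1. The 5′ end itself had folds of 3.44 and 3.57 with DMSO and 3.28 and 4.31 with inhibitor. In all, 10 of 15 DMSO peaks and 12 of 16 inhibitor peaks of IGF1R were shared, where the lists had 63.2% and 58.1%.

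EGFR, the receptor of epidermal growth factor, is usually low in small cell lung cancer. Its 5′ end held 2 narrow H3K4me2 intervals, 195 bp with a fold of 6.58 at chr7:55086783-55086977 and 187 bp with a fold of 4.39 at chr7:55087162-55087348, together 0.382 kb of the 4 kb around it. At MET the 4 kb around the 5′ end held 2.86 kb of H3K4me2. No LSD1 peak lay within 5 kb of the EGFR 5′ end in either list. The only LSD1 peak inside the gene, 88.4 kb in at chr7:55175256-55175530, was present with DMSO only and overlapped neither mark. With a fold of 6.72 and a −log10 q of 7.80 it ranked 1128 of 45188, and its fold was the highest of the 59 DMSO members. The other intervals lay 236 kb from the 5′ end, past the gene: an H3K4me2 interval of 495 bp (fold 5.68) with an LSD1 peak in both lists (fold 4.25 with DMSO, 3.54 with inhibitor), and an inhibitor-only LSD1 peak of 178 bp on neither mark (fold 4.40). The shared inhibitor peak began at chr7:55323319, the last base of the H3K4me2 interval, so it met that mark by 1 bp.

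ERBB2, a receptor of the same family that has no ligand of its own and pairs with its relatives, lies among close neighbours: RefSeq (GRCh38.p14) places STARD3, TCAP, PNMT and PGAP3 before it, MIEN1 against it, and GRB7 and IKZF3 after it, so intervals here cannot be given to 1 gene. At the ERBB2 5′ end H3K4me2 covered 1.89 kb of 4 kb, with a main interval of 1542 bp at chr17:37844116-37845657 and a fold of 13.3. The gene itself held the middles of 3 H3K4me2 and 2 H3K4me1 intervals in 41 kb, 1 of each at the 5′ end. The strongest and widest H3K4me2 interval of the window, 4814 bp with a fold of 19.0, lay past the gene at chr17:37892801-37897614.

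LSD1 peaks at ERBB2 numbered 10 with DMSO and 4 with inhibitor, and with a −log10 q of at least 2 they numbered 3 and 2. Of the 10 DMSO peaks, 6 lay upstream or at the 5′ end, none of which overlapped an inhibitor peak. All 4 inhibitor peaks lay past the gene, and 3 of them were shared (lists 63.2% of DMSO and 58.1% of inhibitor peaks). The 5′ end peak, at chr17:37844176-37844679, had a fold of 3.65 and a −log10 q of 1.77. The highest of the DMSO-only peaks, upstream at chr17:37832866-37833158, had a fold of 4.68 and a −log10 q of 4.10 and lay on neither mark. The other 5 upstream or 5′ peaks had −log10 q values from 1.28 to 1.77, all below the list median of 1.95.

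MET, the receptor of hepatocyte growth factor, had a strong 5′ end and a chain of sites in its first 65 kb. Its 5′ H3K4me2 interval, 3189 bp at chr7:116311145-116314333, had a fold of 18.3 and a −log10 q of 51.1 and ranked 2123 of 81619. A narrower one of 891 bp, 53.0 kb inside the gene at chr7:116364525-116365415, was slightly stronger (fold 19.0) and overlapped only a weak H3K4me1 interval (fold 4.98). H3K4me1 was broad 17.6, 35.8, 39.1 and 62.4 kb inside, with widths of 2666, 2869, 2034 and 2759 bp and folds from 9.33 to 10.7.

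LSD1 lay across the MET 5′ H3K4me2 interval in both lists, 1728 bp with DMSO (fold 3.50) and 2045 bp with inhibitor (fold 3.97). A pair of sites inside the gene stood in opposite order in the lists. At 17.1 kb, chr7:116328771-116329332, the fold was 5.10 with DMSO (rank 3315) and 3.57 with inhibitor (rank 33796). At 63.1 kb, chr7:116374912-116375248, it was 3.38 with DMSO (rank 21381), and the overlapping inhibitor peak had 6.16 (rank 2907). Both lay under both marks. The highest LSD1 score of the window was past the gene in both lists, 139 kb from the 5′ end, with folds of 5.92 and 6.61. Upstream of the gene, by their middles, there were 4 DMSO peaks, at −41.1, −23.7, −12.6 and −0.903 kb, and no inhibitor peak. The inhibitor peak across the 5′ end did begin upstream of it, at chr7:116311740. Of the 4 DMSO peaks, the highest −log10 q was 3.03 (−23.7 kb), and the one at −0.903 kb had 1.48.

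FGFR1, a receptor of fibroblast growth factors read from the minus strand, was marked at its 5′ end and hardly elsewhere within the gene. The H3K4me2 interval there, 1953 bp at chr8:38324197-38326149, had the highest fold of any 5′ end, 20.6, with a −log10 q of 46.5. H3K4me1 formed 1 interval of 782 bp (fold 5.01) within it. From chr8:38323562 towards the gene's end, 78.5 kb held no interval of any list, which takes in the rest of the gene. LSD1 lay at the 5′ end with folds of 3.63 and 3.33 with DMSO and 3.67 with inhibitor, all with a −log10 q under 2. The H3K4me2 group past the gene, with folds up to 17.6, lies on the side where RefSeq places LETM2 and NSD3.

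BCL2 held the highest-scoring and widest marks of the 7 windows. Its highest H3K4me2 interval was far from the 5′ end: 4698 bp at chr18:60802363-60807060, 182 kb inside the gene, with a fold of 26.7 and a −log10 q of 82.2, ranking 178 of 81619. The widest H3K4me1 interval, 9434 bp at chr18:60844168-60853601, lay 138 kb inside with a fold of 18.4 and a −log10 q of 74.5, ranking 195 of 94689. It covered the whole of a 7085 bp H3K4me2 interval (fold 17.1). H3K4me1 was also strong 187 kb inside (2649 bp, fold 16.3), where H3K4me2 had a fold of 8.43. The 5′ end carried H3K4me2 over 3.41 kb of 4 kb, with a main interval of 3585 bp at chr18:60983627-60987211 and a fold of 15.2. H3K4me1 there was weaker: the nearest intervals, at −1.60 and 2.53 kb, had folds of 6.65 and 3.20.

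**Figure D3:**
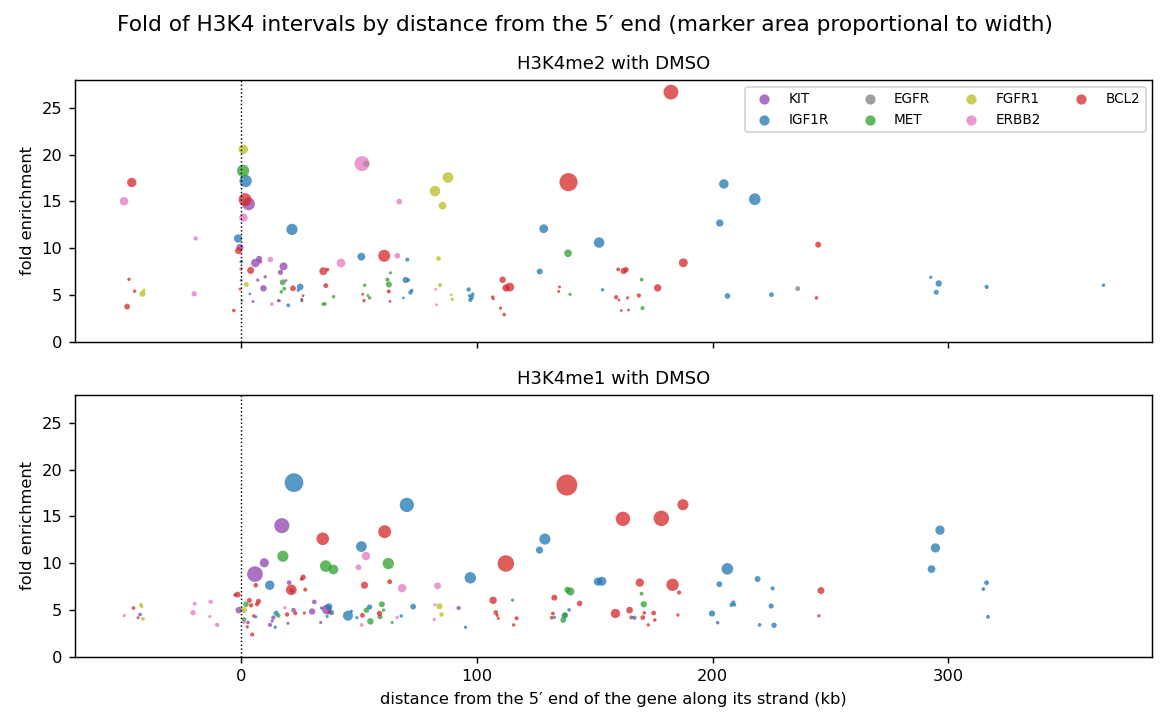
Fold enrichment of each H3K4me2 (top) and H3K4me1 (bottom) interval against its distance in kb from the gene's 5′ end, coloured by gene, with marker area proportional to interval width. The highest H3K4me2 fold, 26.7, is at BCL2 182 kb inside the gene, and near 0 kb FGFR1 and MET stand at 20.6 and 18.3. H3K4me1 has its largest markers inside BCL2, IGF1R and KIT.

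LSD1 lay at some of these BCL2 sites, at modest enrichment. Of the 44 H3K4me2 intervals, 14 carried it with DMSO (31.8%, list 35.4%) and 18 with inhibitor (40.9%, list 40.8%). Of the 53 H3K4me1 intervals, 9 carried it with DMSO (17.0%, list 23.7%) and 11 with inhibitor (20.8%, list 23.8%). At the 5′ end a peak inside the gene was shared, 1680 bp at chr18:60984337-60986016 with DMSO (fold 4.12, −log10 q 3.33) and 1324 bp with inhibitor (fold 4.46, −log10 q 6.77, rank 4613). The highest score of the window was also shared, 164 kb inside at chr18:60822748-60823062 (fold 3.66, −log10 q 3.69 with DMSO; fold 4.51, −log10 q 7.17 with inhibitor). The interval with the highest H3K4me2 carried LSD1 in both lists, with folds of 3.98 and 4.38. Inhibitor peaks without a DMSO counterpart numbered 10, of which 8 lay on a mark, where 50.1% of the list's inhibitor-only peaks did. H3K4me2 covered 13.7% and H3K4me1 21.1% of this window, against 1.94% and 2.19% of the genome, and the part of this in the 8 was not tested. The 10 included the peak under the H3K4me1 interval 187 kb inside (fold 3.35) and 2 peaks 107 and 113 kb inside (folds 3.85 and 3.24). All 10 had a −log10 q under 3. Of the 14 DMSO peaks 11 were shared, and of the 23 inhibitor peaks 13 were (lists 63.2% and 58.1%). None of the 37 LSD1 peaks of BCL2 was within the top 5% of its list.

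Over the 7 windows the members within the top 5% by −log10 q were 3 of 59 LSD1 peaks with DMSO, 2 of 64 with inhibitor, 9 of 138 H3K4me2 and 17 of 160 H3K4me1 intervals, and of the last, 8 were at BCL2 and 6 at IGF1R. The whole lists hold 5.00%, 5.00%, 5.01% and 5.00% there. Intervals of at least 4 kb numbered 8 of 160 for H3K4me1 (4 at BCL2, 2 at IGF1R, 2 at KIT), against 1.30% of the list. For H3K4me2 they numbered 3 of 138 (2 at BCL2, 1 at ERBB2), against 0.646%. Of the 8 broad H3K4me1 intervals, 7 carried LSD1 with DMSO and 8 with inhibitor, where the shares over all such intervals were 82.2% and 86.5%.

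LSD1 peaks of the windows lay on marks as follows. Of the 59 DMSO peaks, 38 overlapped H3K4me2 (64.4%, 95% Wilson interval 51.7 to 75.4%), against 50.4% of the whole list, and 28 overlapped H3K4me1 (47.5%, 35.3 to 60.0%), against 41.5%. Of the 64 inhibitor peaks, 44 overlapped H3K4me2 (68.8%, 56.6 to 78.8%; list 52.9%) and 35 overlapped H3K4me1 (54.7%, 42.6 to 66.3%; list 39.5%). The Wilson limits take in counting error alone, and peaks near each other are not independent. At BCL2, 13 of 14 DMSO peaks lay on H3K4me2. Without its window the DMSO shares were 55.6% for H3K4me2 and 37.8% for H3K4me1, the latter below the list, and the inhibitor shares were 65.9% and 46.3%, both above it. When both intervals had to share 50% of their length, H3K4me2 lay under 15.3% of DMSO peaks (list 14.2%) and 21.9% of inhibitor peaks (list 13.5%). H3K4me1 then lay under 8.47% of DMSO peaks (list 8.23%) and under 4.69% of inhibitor peaks, below the list's 6.36%. By peak centre the shares on H3K4me2 were 47.5% with DMSO (list 36.4%) and 53.1% with inhibitor (list 36.8%).

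**Figure D4:**
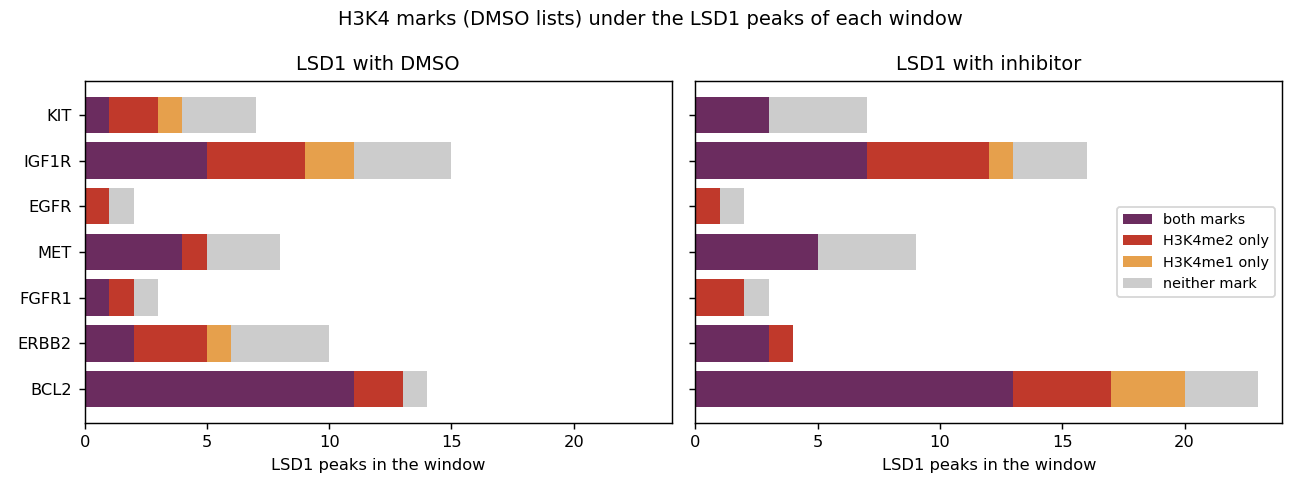
Number of LSD1 peaks in each gene window with DMSO (left) and with inhibitor (right), split by the DMSO histone marks they overlap. BCL2 has 11 of 14 DMSO peaks and 13 of 23 inhibitor peaks on both marks; ERBB2 has 10 peaks with DMSO and 4 with inhibitor.

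By gene, the DMSO peaks on neither mark were 3 of 7 at KIT, 4 of 15 at IGF1R, 1 of 2 at EGFR, 3 of 8 at MET, 1 of 3 at FGFR1, 4 of 10 at ERBB2 and 1 of 14 at BCL2, together 17 of 59 (28.8%) against 39.8% of the list. With inhibitor they were 16 of 64 (25.0%) against 37.6%. Peaks on both marks were 24 of 59 with DMSO (list 31.7%) and 31 of 64 with inhibitor (list 30.0%). On H3K4me2 alone there were 14 with DMSO (list 18.7%) and 13 with inhibitor (list 22.9%), and on H3K4me1 alone 4 with DMSO (list 9.84%) and 4 with inhibitor (list 9.49%). Seen from the marks, 41 of 138 H3K4me2 intervals carried LSD1 with DMSO (29.7%, 22.7 to 37.8%; list 35.4%) and 48 with inhibitor (34.8%, 27.3 to 43.0%; list 40.8%). Of the 160 H3K4me1 intervals, 31 carried LSD1 with DMSO (19.4%; list 23.7%), 33 with inhibitor (20.6%; list 23.8%) and 72 H3K4me2 (45.0%; list 47.4%). H3K4me2 intervals overlapped H3K4me1 in 109 of 138 cases (79.0%, 71.5 to 85.0%), against 63.1% of the list. Where both intervals had to share 50% of their length the order turned, with 10.9% in the windows and 15.2% of the list. Several H3K4me2 intervals can lie on 1 H3K4me1 interval, so these cases are not independent and the range is not a test. At KIT the 14 H3K4me2 intervals met 5 of the 21 H3K4me1 intervals. By gene, H3K4me2 intervals overlapping H3K4me1 by at least 1 bp were 14 of 14 at KIT, 30 of 35 at IGF1R, 16 of 18 at MET, 37 of 44 at BCL2, 7 of 13 at ERBB2, 5 of 11 at FGFR1 and 0 of 3 at EGFR.

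The last comparison asked how far LSD1 was found at the same places with inhibitor. Of the DMSO peaks, 33 of 59 overlapped an inhibitor peak (55.9%, 43.3 to 67.8%), against 63.2% of the list, and of the inhibitor peaks 37 of 64 overlapped a DMSO peak (57.8%, 45.6 to 69.1%), against 58.1%. Both list values lie within the intervals. The shared DMSO peaks were on H3K4me2 in 29 of 33 cases (87.9%, 72.7 to 95.2%) and the DMSO-only peaks in 9 of 26 (34.6%, 19.4 to 53.8%), where the whole list had 62.8% and 29.2%. For inhibitor peaks the counts were 32 of 37 shared (86.5%, 72.0 to 94.1%) and 12 of 27 inhibitor-only (44.4%, 27.6 to 62.7%), where the list had 62.3% and 40.0%. H3K4me1 was under 19 of 33 shared DMSO peaks (list 48.9%), 9 of 26 DMSO-only peaks (list 29.0%) and 21 of 37 shared inhibitor peaks (list 47.9%). It was under 14 of the 27 inhibitor-only peaks (51.9%, 34.0 to 69.3%), against 27.8% of such peaks in the list. Of these 27, 10 were at BCL2, where H3K4me1 covered 21.1% of the window, against 2.19% of the genome. The part of that cover in this share was not tested.

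The overlapping peaks formed 37 pairs. The fold was higher with inhibitor in 23 of them, against 65.6% of all 29329 pairs of the lists, and −log10 q was higher in 27, against 75.3%. By gene, the fold was higher with inhibitor in 9 of 12 pairs at IGF1R, 9 of 13 at BCL2, 3 of 4 at MET, 1 of 2 at KIT, 1 of 2 at FGFR1, 0 of 3 at ERBB2 and 0 of 1 at EGFR. The median fold over the 37 pairs was 3.75 with DMSO and 3.97 with inhibitor, and 3.76 and 4.11 over all pairs. The 2 libraries' depths are unknown, and their part in these folds was not tested. Paired peaks can also differ in width. At IGF1R, 1 DMSO peak of 2291 bp (fold 4.99) paired with inhibitor peaks of 777 bp (fold 6.40) and 225 bp (fold 3.52). LSD1 peaks were narrower in the inhibitor list (median 388 bp) than in the DMSO list (median 471 bp). The part of width in the pair folds and −log10 q values was not tested.

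**Figure D5:**
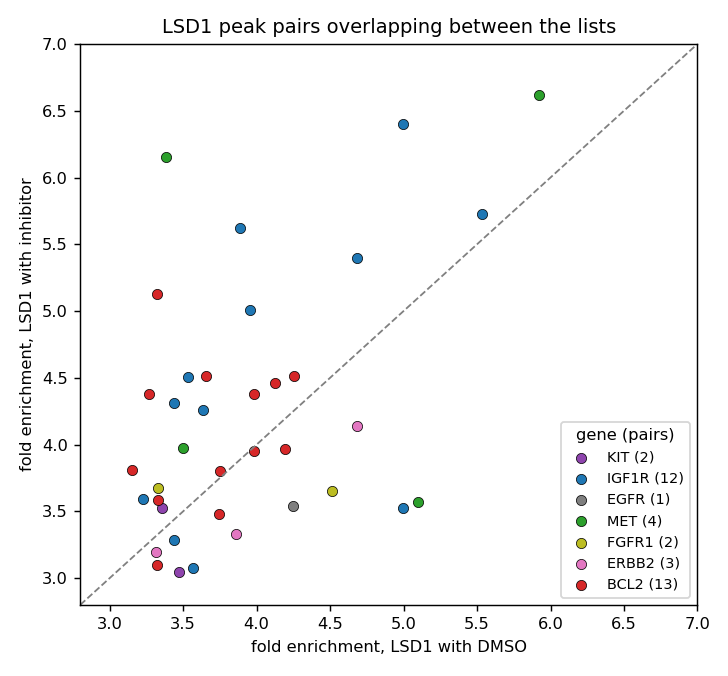
Fold enrichment of the 37 overlapping pairs of LSD1 peaks, with DMSO (x axis) and with inhibitor (y axis), coloured by gene, with the line of equal fold dashed; 1 DMSO peak can pair with several inhibitor peaks and the reverse. Points lie on both sides of the line, 23 above it, and the 3 ERBB2 pairs and the EGFR pair lie below it.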

How the data were processed

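ChIP-seq peak lists of 4 libraries, 1 per group by the sample labels, were used. The submitters' processing notes name BWA, Picard, MACS2 2.0 and build hg19; settings and sequencing depth are unknown here. The deposited fold is a ratio to the caller's background, p and q were deposited as −log10 values, and the deposited score is the −log10 q value times 10. Deposited summit offsets were used for 1 alternative. LSD1 files have a broad-peak form and histone files a narrow-peak form, whose rows for 1 interval were reduced to that of highest −log10 q. Gene ranges on hg19 were given to 1 kb, and strands of 6 genes were checked against RefSeq. Overlap meant at least 1 bp, and distances run from the 5′ end to an interval's middle. Local background was solved from fold and Poisson p-value as if both came from 1 position, with 1 added to pileup and background. Overlap counting was also tested on simulated intervals. Sites named by rule were those within 2 kb of the 5′ end, the highest-scoring of each list, the widest of each mark and the highest in 1 LSD1 list only; other sites were chosen after their values were seen. Members and lists were chosen with earlier results of these data known. Other pathway genes were not analysed here, for want of hg19 positions. Alternatives varied overlap, threshold, list length and flanks. Python 3.11.15, pandas 2.3.3 and scipy 1.17.1 were used.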

Additional observations from a re-analysis of the deposited data

How the results depend on the processing

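No paired analysis was possible because no group held more than 1 library and nothing was tested. Values are for the 7 windows, with the whole list under the same setting in parentheses. With equal length of the LSD1 lists and with 100 kb flanks, 9 of 9 shares stayed within their counting intervals, as they did without the BCL2 window or without the IGF1R window (both chosen after the data were seen). With a reciprocal overlap of 50%, DMSO LSD1 was in the inhibitor list in 22.0% (33.3%) and the reverse in 20.3% (30.4%) of cases. H3K4me2 then lay under 15.3% (14.2%) of DMSO and 21.9% (13.5%) of inhibitor peaks, and H3K4me1 under 8.47% (8.23%) and 4.69% (6.36%). H3K4me2 carried DMSO LSD1 in 6.52% (7.85%), inhibitor LSD1 in 10.1% (8.20%) and H3K4me1 in 10.9% (15.2%) of cases. Against the list, 3 shares thus turned: inhibitor LSD1 on H3K4me1, H3K4me2 with inhibitor LSD1 and H3K4me2 with H3K4me1. By centres or summits, 33.9% (47.2%) of DMSO LSD1 was in the inhibitor list and 47.5% (36.4%) on H3K4me2, inhibitor LSD1 had H3K4me2 in 53.1% (36.8%) and H3K4me1 in 39.1% (25.3%), and H3K4me2 carried DMSO LSD1 in 13.8% (20.5%), inhibitor LSD1 in 18.8% (21.6%) and H3K4me1 in 70.3% (50.4%). With the 50% highest-scoring peaks, 213 intervals were left of 421, inhibitor LSD1 was on H3K4me2 in 44.0% (42.2%), and H3K4me2 carried inhibitor LSD1 in 17.4% (31.7%) and H3K4me1 in 66.7% (47.2%). BCL2 then had 10 DMSO and 9 inhibitor peaks. With only LSD1 peaks whose −log10 q reached 2, 69.0% (73.4%) of DMSO LSD1 was in the inhibitor list, with H3K4me2 under 79.3% (56.7%) and H3K4me1 under 62.1% (49.4%), and H3K4me2 carried DMSO LSD1 in 19.6% (20.7%) and inhibitor LSD1 in 21.7% (33.1%). On the gene intervals alone, H3K4me1 lay under 63.9% of DMSO and 69.8% of inhibitor peaks and 89.1% of H3K4me2 intervals. With 10 kb flanks, 76.2% of DMSO LSD1 was on H3K4me2 and 85.5% of H3K4me2 on H3K4me1. The share of DMSO LSD1 in the inhibitor list was above the whole list only with the gene intervals alone and 10 kb flanks. It was 63.9% (63.2%) and 64.3% (63.2%) there. The reverse share was above it at 60.0% (54.0%) with the 50% highest-scoring peaks and 51.2% (43.3%) with a −log10 q of at least 2. With 10 kb flanks the reverse share was below it, at 57.7% (58.1%). The stricter settings use fewer or shorter overlaps by construction, and beyond that the cause was not tested. Depth is unknown, so a weak peak missing from a list is not shown to be absent.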

Other observations

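Some strong intervals of the windows lay beside neighbouring genes. On the side of BCL2 where RefSeq (GRCh38.p14) places KDSR, a gene of sphingolipid synthesis, an H3K4me2 interval of 1871 bp at chr18:61032546-61034416 (hg19) had a fold of 17.0 and a −log10 q of 67.4. LSD1 there had a fold of 3.32 with DMSO over 1844 bp, and the overlapping inhibitor peaks had folds of 5.13 and 3.10. Past ERBB2, on the side of GRB7 and IKZF3, an LSD1 peak on H3K4me2 at chr17:37886615-37887880 had a fold of 4.68 with DMSO, and its inhibitor counterpart had 4.14. At FGFR1, at −44.6 kb from the 5′ end, a narrow LSD1 peak on neither mark was in both lists, with folds of 4.51 (DMSO) and 3.65 (inhibitor).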
